A study of Mus musculus with 346 samples.

Results

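Integrins and laminins are the receptors and the ligands of cell attachment to the basement membrane, and their genes were followed here through early liver and pancreas cells of the mouse. The 30 genes are every row of the expression table whose name starts with Itga or Itgb and a number, or consists of Lama, Lamb or Lamc and a number, out of 20474 genes in all. They comprise 11 integrin alpha chains, 7 integrin beta chains, 9 laminin chains and 3 genes for proteins that bind integrin tails (Itgb1bp1, Itgb1bp2 and Itgb3bp). The pattern leaves out Itgav, which is given below as a partner chain. Laminin alpha 3 and gamma 3 and integrin alpha 7 and beta 2 have no row among these 30. Shares within a chain family below therefore leave them out.

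The cells came from embryos of the transgenic line Tg(Prox1-EGFP), in which green fluorescent protein reports the homeobox gene Prox1, and all of them were sorted for that fluorescence into plates. Each cell was sequenced by Smart-seq2, a full-length RNA method for single cells. The E10.5 liver bud gave 78 cells on plate 5A, the E10.5 ventral pancreatic bud 27 cells on plate 3, the E8.5 foregut 82 cells on plate 1A, the E14.5 pancreas 73 cells on plate 4A, and the E10.5 dorsal pancreatic bud 86 cells on plates 2A (48 cells) and 2B (38 cells). All groups share the reporter genotype and the sort, and the labels name no animal, age within the day or litter. Each group therefore counts as 1 sample, no test was run, and every SD below is a spread over cells. A difference between groups on different plates cannot be told apart from a difference between plates.

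A laminin is a cross-shaped trimer of an alpha, a beta and a gamma chain. It is abbreviated LM with the numbers of its chains, so LM-511 holds Lama5, Lamb1 and Lamc1. Trimers assemble inside the cell, and a beta and a gamma chain are not secreted until an alpha chain has joined them. An integrin is a pair of an alpha and a beta chain at the cell surface. Pairs with Itga3 or Itga6 bind laminin, the pair of Itga5 and Itgb1 binds fibronectin, that of Itga8 and Itgb1 binds nephronectin and other ligands with the RGD motif, and Itga9 and Itga4 with Itgb1 bind tenascin, VCAM1 and fibronectin. Laminin is a main constituent of the basement membrane around the pancreatic buds and under the early hepatic endoderm.

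The dorsal cells were divided at a log2 level of 5 of Epcam, an epithelial adhesion protein, into 66 cells with Epcam (41 on plate 2A, 25 on 2B) and 20 without (7 and 13). The liver was divided at 10 of Afp, a fetal serum protein made by hepatoblasts, into 46 cells with and 32 without Afp, and the E14.5 plate at 5 of Col1a1, a fibrillar collagen chain of mesenchyme, into 58 cells with and 15 without Col1a1. The cells next to the limits lay at 2.15 and 5.48 for Epcam, at 6.57 and 11.6 for Afp and at 0 and 8.47 for Col1a1. The label of the E14.5 plate names pancreatic epithelium, but all 58 of its cells with Col1a1 had 3 or more of 10 mesenchyme markers, and 6 of 7 epithelial markers, Epcam among them, were detected in none of them. Of the 82 foregut cells, labelled as endoderm, 57 had 3 or more neural tube markers, 11 had 3 or more cardiac muscle markers and 11 had 3 or more epithelial markers. Of the 32 liver cells without Afp, 15 had 3 or more mesenchyme markers and 12 had 3 or more cardiac muscle markers, while all 46 liver cells with Afp had 3 or more hepatoblast markers. Of the dorsal cells with Epcam 64 of 66 had 3 or more epithelial markers, as had 27 of 27 ventral cells. Hepatoblast markers, 3 or more, were in 19 of 27 ventral cells and 6 of 66 dorsal cells with Epcam. Pancreatic progenitor markers, 3 or more, were in 9 and 42 of these cells. Of the 20 dorsal cells without Epcam 10 had 3 or more mesenchyme markers and 6 had 3 or more epithelial markers. Prox1 itself was detected in 46 of 46 liver cells with Afp, 20 of 32 without Afp, 27 of 27 ventral and 71 of 82 foregut cells, 10 of 58 E14.5 cells with Col1a1, 14 of 15 without Col1a1, and in 66 of 66 and 17 of 20 dorsal cells with and without Epcam.

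Levels are means of log2(normalized reads + 1) over the cells of a class. Detection in a cell required 5 normalized reads. Shares carry exact Clopper-Pearson 95% intervals, which cover the error of counting cells only. They leave out any spread between animals or plates. Reads copied by PCR are also not independent molecules. By the simpler rule of 3 counts over the number of cells, a count of 0 allows a share of up to 6.52% of liver cells with Afp, 9.38% of those without, 11.1% of ventral cells, 5.17% and 20% of E14.5 cells with and without Col1a1, and 4.55% and 15% of dorsal cells with and without Epcam. Median reads per cell ran from 760738 in E14.5 cells without Col1a1 to 2657340 in liver cells with Afp. Median genes per cell ran from 2303 in liver cells without Afp to 5793.5 in foregut cells. Of the 30 genes, 16 passed a filter of detection in 5% of all cells, 6 of the 9 laminin chains among them, and 14 did not. Those 16 could pass through a single class in which they are high, so they do not stand for the families as a whole.

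The 250 bases before the RefSeq start of 3 members are shown. Lama5 and Lamb1, 2 chains of the same trimer, differed in opposite directions between the E14.5 classes, and Itga8 is an integrin chain found in 1 of 66 dorsal cells with Epcam. The sequences are RefSeq's (GRCm38.p6), written from 5′ to 3′ on the gene's strand, with GC boxes (GGGCGG, or CCGCCC on the other strand) in capitals.
Lama5 promoter, chr2:180225860-180226109, - strand: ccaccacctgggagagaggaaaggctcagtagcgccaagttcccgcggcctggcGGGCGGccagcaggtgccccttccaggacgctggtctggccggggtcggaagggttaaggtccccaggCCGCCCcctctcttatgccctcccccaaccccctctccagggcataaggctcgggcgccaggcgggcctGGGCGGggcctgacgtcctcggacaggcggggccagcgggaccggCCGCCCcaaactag
Lamb1 promoter, chr12:31265043-31265292, + strand: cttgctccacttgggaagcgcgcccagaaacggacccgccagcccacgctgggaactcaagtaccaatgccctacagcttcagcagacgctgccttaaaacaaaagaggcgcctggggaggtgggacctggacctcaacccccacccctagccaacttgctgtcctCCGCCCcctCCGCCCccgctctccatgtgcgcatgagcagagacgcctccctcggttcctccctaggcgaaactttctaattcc
Itga8 promoter, chr2:12301945-12302194, - strand: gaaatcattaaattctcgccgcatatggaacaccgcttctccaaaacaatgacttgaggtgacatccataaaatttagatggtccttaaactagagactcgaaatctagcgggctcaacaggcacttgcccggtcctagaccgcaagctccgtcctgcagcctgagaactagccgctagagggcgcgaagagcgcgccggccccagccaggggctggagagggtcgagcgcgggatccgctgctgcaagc
Of 30 members, 22 had a promoter in that table, and Lama1, Lamc1 and Itga6 had none. The Lama5 stretch holds 4 GC boxes and 2 E-boxes (CAGGTG on either strand), the Lamb1 stretch 2 GC boxes and 1 CCAAT box, and the Itga8 stretch none of these letters, while TATAAA is in none of the 3. Over 32851 promoters of the same length, 32.7% hold a GC box, 17.2% the E-box, 33.8% CCAAT and 12.4% TATAAA on either strand, and no match overlaps another kind in these 3 stretches. The matches describe letters only.

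Lama5, the alpha chain of LM-511 and LM-521 (chromosome 2, 180176373 to 180225859, GRCm38), was found in most dorsal cells with Epcam, ventral cells and E14.5 cells without Col1a1. In dorsal cells with Epcam its level ran from 0 through a median of 6.22 to 10.35, with a mean of 5.27 ± 3.68 (n = 66), and 47 cells carried it (71.2%, interval 58.7 to 81.7%). In E14.5 cells without Col1a1 the median was 6.26, the highest 11.21 and the mean 5.08 ± 3.85 (n = 15), with 10 cells positive (66.7%, 38.4 to 88.2%). All 10 were among the 13 cells there with 3 or more epithelial markers. The ventral bud had a median of 5.63, a highest cell of 9.98, a mean of 4.26 ± 4.10 (n = 27) and 15 positive cells (55.6%, 35.3 to 74.5%). Foregut cells averaged 3.24 ± 3.42 (n = 82; median 0.52, highest 8.79) with 40 positive cells (48.8%, 37.6 to 60.1%), and liver cells with Afp 1.29 ± 2.65 (n = 46; median 0, highest 9.17) with 9 (19.6%, 9.36 to 33.9%). No read of Lama5 was found in any of the 58 E14.5 cells with Col1a1 or the 32 liver cells without Afp. The intervals of the 4 highest classes overlap, and those of both liver classes lie below that of the dorsal cells with Epcam. These intervals count cells of 1 sample a group, and the liver cells were on another plate, so they cannot separate class from plate. The dorsal cells without Epcam differed between plates, with Lama5 in 5 of 7 cells of plate 2A and 3 of 13 of plate 2B.

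Lama1, the alpha chain of LM-111 and of the earliest embryonic basement membranes (chromosome 17, 67697259 to 67822647), was detected most often in the foregut plate. There 48 of 82 cells carried it (58.5%, 47.1 to 69.3%), with a median of 5.54, a highest cell of 8.54 and a mean of 4.10 ± 3.49. It was found in 27 of 66 dorsal cells with Epcam (40.9%, 29 to 53.7%; mean 2.66 ± 3.44, highest 10.33), 8 of 20 without Epcam (40%, 19.1 to 63.9%; 2.78 ± 3.43), 7 of 27 ventral cells (25.9%, 11.1 to 46.3%; 1.55 ± 3.05), and 16 of 58 E14.5 cells with Col1a1 (27.6%, 16.7 to 40.9%; 2.24 ± 3.76, highest 10.92). It was in 3 of 32 liver cells without Afp (9.38%, 1.98 to 25%), and no read was found in any of the 46 liver cells with Afp or the 15 E14.5 cells without Col1a1. The intervals of both liver classes and of E14.5 cells without Col1a1 overlap. In the foregut 38 of the 48 positive cells were among the 57 cells with neural tube markers, and 6 among the 11 with epithelial markers. Lama4, an alpha chain known from vessel walls and mesenchyme, fell just short of the 25% of a class that was required for naming: it was found in 14 of 58 E14.5 cells with Col1a1 (24.1%), 8 foregut cells and none of 66 dorsal cells with Epcam.

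Of the other chains, Lamb1 (chromosome 12, 31265234 to 31329644), the beta chain of LM-111, LM-411 and LM-511, was the most widely detected laminin chain, in 188 of all cells (54.3%). It reached 50 of 66 dorsal cells with Epcam (75.8%, 63.6 to 85.5%; mean 5.99 ± 3.68, median 7.55), 18 of 27 ventral cells (66.7%, 46 to 83.5%; 5.48 ± 4.06, median 7.34), 55 of 82 foregut cells (67.1%, 55.8 to 77.1%; 4.55 ± 3.47, median 5.93) and 34 of 58 E14.5 cells with Col1a1 (58.6%, 44.9 to 71.4%; 5.54 ± 4.68, median 8.0). Lamb1 was also in 12 of 20 dorsal cells without Epcam (60%; 2 of 7 on plate 2A, 10 of 13 on 2B). In E14.5 cells without Col1a1 it was in 6 of 15 (40%). Both liver classes were low: 7 of 46 cells with Afp (15.2%, 6.34 to 28.9%) and 6 of 32 without (18.8%, 7.21 to 36.4%). Lamc1 (chromosome 1, 153218922 to 153332786), the gamma chain shared by most laminins, was in 36 of 66 dorsal cells with Epcam (54.5%, 41.8 to 66.9%), 14 of 27 ventral (51.9%), 43 of 82 foregut (52.4%) and 8 of 15 E14.5 cells without Col1a1 (53.3%). It was in 17 of 46 liver cells with Afp (37%), 17 of 58 E14.5 cells with Col1a1 (29.3%), 5 of 32 liver cells without Afp (15.6%) and 3 of 20 dorsal cells without Epcam (15%, 3.21 to 37.9%). Lamb2, the beta chain of LM-121 and LM-521, was in 7 of 20 dorsal cells without Epcam (35%) and in 6.25% to 23.2% of the other classes. Liver cells with Afp thus had the gamma chain in more cells than any alpha or beta chain, and 16 of the 46 had no laminin chain at all. The same held for 18 of 32 liver cells without Afp and 2 of 66 dorsal cells with Epcam.

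**Figure D1:**
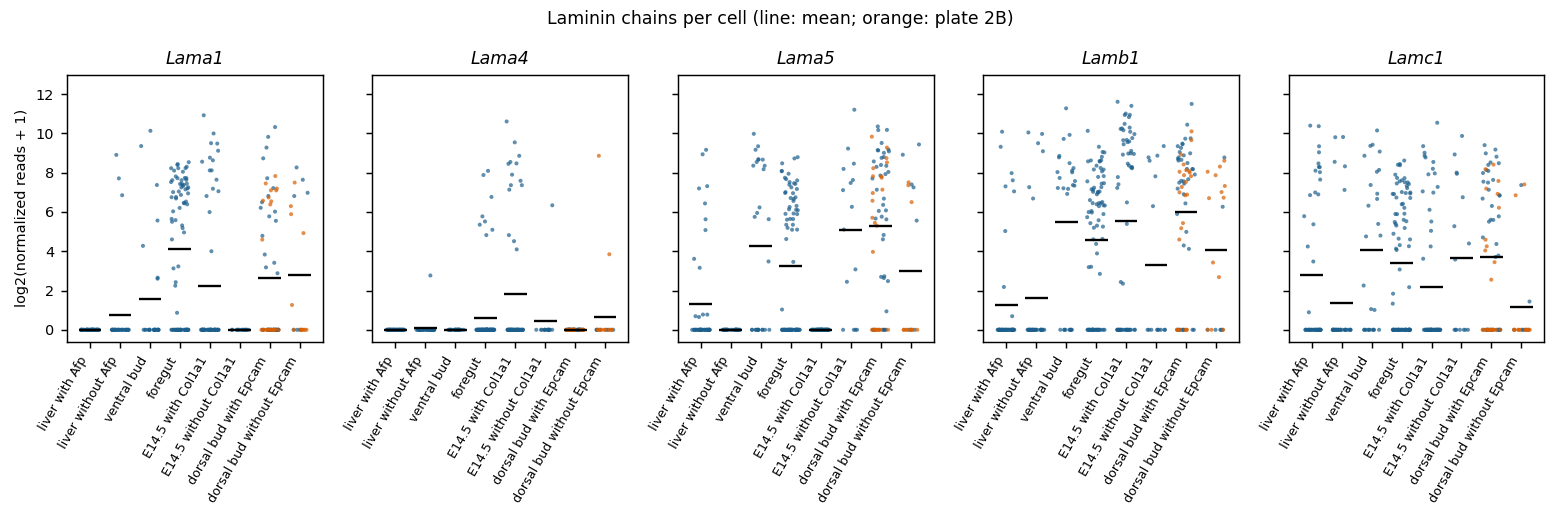
Each point is 1 cell, the vertical axis gives log2(normalized reads + 1), black lines are means, and cells of dorsal plate 2B are orange. Lama5 has no point above 0 among E14.5 cells with Col1a1, where Lamb1 averages 5.54, and Lama1 has none among liver cells with Afp.

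**Figure D2:**
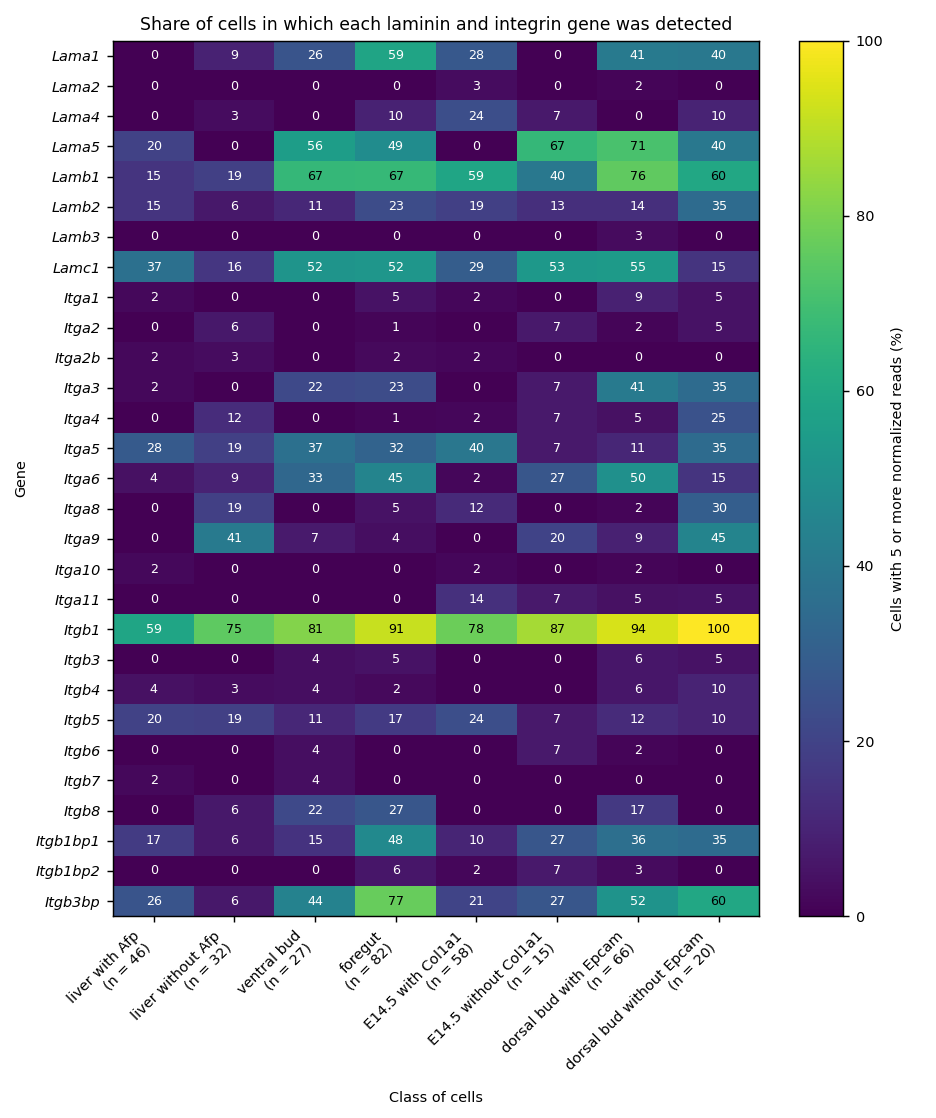
Colours and numbers give the percentage of cells with 5 or more normalized reads for the genes (rows) in the 8 classes (columns, with the number of cells). Itgb1 is the row that stays high throughout, between 58.7% and 100%, whereas the laminin chains and the integrin alpha chains change from class to class.

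Levels of different genes are comparable only per length, so the mean normalized reads were divided by kilobases of exon. On that scale Lama5 made up 100% of the laminin alpha reads of liver cells with Afp (2.97 per kb), 67.9% of those of ventral cells (16.3 per kb), 98.2% of those of E14.5 cells without Col1a1 (24.8 per kb) and 70.2% of those of dorsal cells with Epcam (19.6 per kb). Lama1 made up 59.2% in the foregut (9.39 per kb). It made up 64.4% in E14.5 cells with Col1a1, where Lama4 gave another 33.7%. In liver cells without Afp Lama1 made up 99.4%, at 2.59 per kb from 3 positive cells, and the 100% of Lama5 in liver cells with Afp rests on 9 positive cells. In dorsal cells without Epcam the plates differed. Lama5 made up 63.8% on plate 2A, while Lama4 (34.9%), Lama5 (33.6%) and Lama1 (31.5%) had nearly equal shares on plate 2B. The shares on plate 2B rest on few of its 13 cells without Epcam. Lama4 was in 2 of them, at log2 levels of 3.85 and 8.86, Lama5 in 3 and Lama1 in 4. Lamb1 outweighed Lamb2 per kb in every class but the liver, where Lamb2 made up 70.5% with Afp and 50.4% without. These shares rest on few cells: Lamb2 was in 7 of 46 with Afp and 2 of 32 without, and Lamb1 in 7 and 6.

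**Figure D3:**
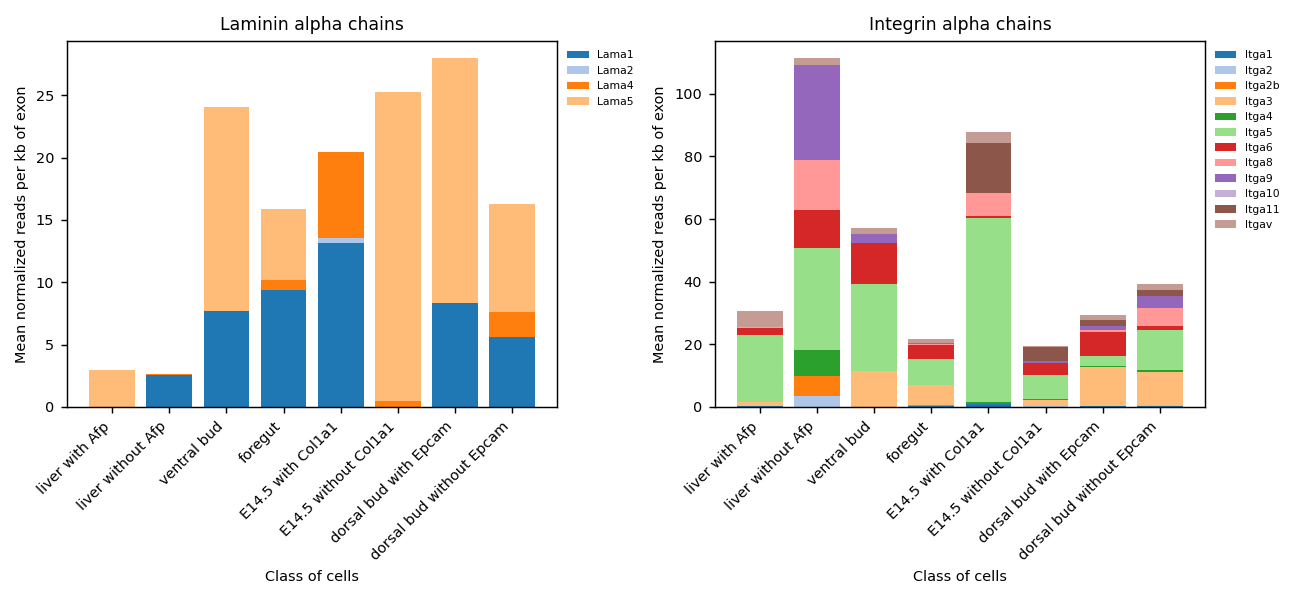
Bars stack the mean normalized reads per kilobase of exon of each laminin alpha chain (left) and each integrin alpha chain, Itgav included (right), in the 8 classes. Lama5 fills most of the bars of the ventral, E14.5 without Col1a1 and dorsal with Epcam classes, Itga5 most of the bars of liver cells with Afp and E14.5 cells with Col1a1, and Itga3 with Itga6 most of the bar of dorsal cells with Epcam.

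Whether a cell carried all chains of a trimer was counted cell by cell. All 3 chains of LM-511 were detected in 23 of 66 dorsal cells with Epcam (34.8%, 23.5 to 47.6%; 18 of 41 on plate 2A and 5 of 25 on 2B), 7 of 27 ventral cells (25.9%, 11.1 to 46.3%), 18 of 82 foregut cells (22%, 13.6 to 32.5%) and 1 of 15 E14.5 cells without Col1a1. None of the 46 and 32 liver cells, the 58 E14.5 cells with Col1a1 or the 20 dorsal cells without Epcam held them all. For the 32 liver cells without Afp and the 58 E14.5 cells this follows from the lack of Lama5 reads. Single chains were also few in the others, with Lamb1 in 7 of 46 liver cells with Afp and Lamc1 in 3 of 20 dorsal cells. Whether the sets were rarer than the single chains imply was not tested. LM-111 was complete in 15 of 66 dorsal cells with Epcam (22.7%, 13.3 to 34.7%), 4 of 27 ventral cells, 17 of 82 foregut cells (20.7%, 12.6 to 31.1%) and 4 of 58 E14.5 cells with Col1a1 (6.90%, 1.91 to 16.7%). Counting any alpha chain with any beta chain and Lamc1, 26 of 66 dorsal cells with Epcam (39.4%, 27.6 to 52.2%), 8 of 27 ventral and 30 of 82 foregut cells held a full set, against 1 of 46 liver cells with Afp (2.17%, 0.055 to 11.5%) and 0 of 32 without. In E14.5 cells with Col1a1 21 of 58 had a beta chain and no alpha chain, while 5 had a full set. Both Lama1 and Lama5 were in 20 of 66 dorsal cells with Epcam and 21 of 82 foregut cells. No liver or E14.5 cell had both, since each of those classes had no read of Lama1 or none of Lama5. A missed transcript in any 1 of 3 chains breaks a set, so these shares are lower limits of carriage and depend on the reads per cell.

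Among the receptors, Itgb1 (chromosome 8, 128685654 to 128733200), the beta chain shared by most matrix-binding integrins, was in 288 of all cells (83.2%) and made up 83.4% to 94.0% of the integrin beta reads per kb in the 8 classes. Its mean was 5.07 ± 4.50 in liver cells with Afp (27 of 46 cells; median 7.28, highest 11.77), 6.56 ± 4.20 in liver cells without Afp (24 of 32; median 7.39), 6.48 ± 3.35 in ventral cells (22 of 27; median 7.89) and 7.05 ± 2.41 in foregut cells (75 of 82; median 7.68). It was 6.79 ± 4.00 in E14.5 cells with Col1a1 (45 of 58), 7.11 ± 3.39 without Col1a1 (13 of 15), 7.80 ± 2.22 in dorsal cells with Epcam (62 of 66) and 8.36 ± 0.97 without Epcam (20 of 20). The classes overlap widely, with the hepatoblast class lowest. Itgb5, a partner of Itgav that binds vitronectin, peaked at 24.1% of E14.5 cells with Col1a1 and was in 19.6% of liver cells with Afp. Itgb8, a partner of Itgav that binds latent TGF-beta, was detected in 22 of 82 foregut (26.8%), 6 of 27 ventral (22.2%) and 11 of 66 dorsal cells with Epcam (16.7%), but in none of 46 liver cells with Afp, 73 E14.5 cells or 20 dorsal cells without Epcam. Of the 22 foregut cells with Itgb8, 19 had 3 or more neural tube markers and 0 had 3 or more epithelial markers. Itgb4, the partner of Itga6 in hemidesmosomes, was found in 12 of all cells, and both chains together in 2 dorsal cells with Epcam, 1 without, 1 ventral and 1 foregut cell.

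The laminin-binding alpha chains were rare in liver cells with Afp and in E14.5 cells with Col1a1. Itga6 (chromosome 2, 71745616 to 71858416) was in 33 of 66 dorsal cells with Epcam (50%, 37.4 to 62.6%; mean 3.29 ± 3.41, median 2.25, highest 9.18), 37 of 82 foregut cells (45.1%, 34.1 to 56.5%; 2.81 ± 3.14) and 9 of 27 ventral cells (33.3%, 16.5 to 54%; 2.67 ± 3.92). It was in 4 of 15 E14.5 cells without Col1a1, 3 of 20 dorsal cells without Epcam, 3 of 32 liver cells without Afp, 2 of 46 with Afp (4.35%, 0.531 to 14.8%) and 1 of 58 E14.5 cells with Col1a1 (1.72%, 0.0436 to 9.24%). Itga3 (chromosome 11, 95044474 to 95076801), which prefers laminins with Lama5 or Lama3, was in 27 of 66 dorsal cells with Epcam (40.9%, 29 to 53.7%; mean 2.80 ± 3.56), 7 of 20 without Epcam (35%), 19 of 82 foregut (23.2%) and 6 of 27 ventral cells (22.2%), but in 1 of 46 liver cells with Afp and 0 of 58 E14.5 cells with Col1a1. Itga3 with Itgb1 was found in 0 of 32 liver cells without Afp and 1 of 15 E14.5 cells without Col1a1. Scarcity of this pair was thus not particular to the classes with Afp or Col1a1. The dorsal share of Itga3 came more from plate 2B. There 14 of 25 cells with Epcam and 6 of 13 without carried it, against 13 of 41 and 1 of 7 on plate 2A. Itga3 made up 43.2% and Itga6 26.1% of the integrin alpha reads per kb in dorsal cells with Epcam. Itga6 and Itgb1 were both detected in all 33 Itga6-positive dorsal cells with Epcam, in 35 foregut cells and in 8 ventral cells, but in 1 of 46 liver cells with Afp.

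Receptors for fibronectin and RGD ligands had another order. Itga5 (chromosome 15, 103344286 to 103366763) was in 23 of 58 E14.5 cells with Col1a1 (39.7%, 27 to 53.4%; mean 3.58 ± 4.47, highest 11.24), 10 of 27 ventral cells (37%, 19.4 to 57.6%; 2.66 ± 3.82), 26 of 82 foregut cells (31.7%; 2.08 ± 3.13) and 13 of 46 liver cells with Afp (28.3%, 16 to 43.5%; 2.27 ± 3.71). It was in 7 of 66 dorsal cells with Epcam (10.6%, 4.37 to 20.6%; 0.72 ± 2.16) and 1 of 15 E14.5 cells without Col1a1. Per kb it was the leading integrin alpha chain of liver cells with Afp (70.6%), ventral cells (48.7%) and E14.5 cells with Col1a1 (67.2%). In dorsal cells without Epcam it was found in 7 of 13 cells of plate 2B and 0 of 7 of plate 2A. Itgav, which pairs with several beta chains, was in 17.4% to 40% of each class, and its level was higher by 1.20 in E14.5 cells with Col1a1 than in those without. Itga8 (chromosome 2, 12106632 to 12301922) was in 6 of 32 liver cells without Afp (18.8%), 7 of 58 E14.5 cells with Col1a1 (12.1%) and 6 of 20 dorsal cells without Epcam (30%, 11.9 to 54.3%), but in 1 of 66 dorsal cells with Epcam and in no liver cell with Afp, ventral cell or E14.5 cell without Col1a1. Of the 24 cells with Itga8, 19 were in the first 3 of these classes.

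Itga9 (chromosome 9, 118606690 to 118901003), a chain that binds tenascin and other matrix ligands, was detected most often in liver cells without Afp and dorsal cells without Epcam. It was in 13 of 32 liver cells without Afp (40.6%, 23.7 to 59.4%; mean 3.44 ± 4.24, highest 11.05), 7 of them with 3 or more mesenchyme markers and 6 with 3 or more cardiac muscle markers (a cell can have both), and in 0 of 46 with Afp. It was in 9 of 20 dorsal cells without Epcam (45%, 23.1 to 68.5%), in 5 of 7 on plate 2A and 4 of 13 on plate 2B. Only 2 of those 9 had 3 or more mesenchyme markers. E14.5 cells with Col1a1 had it in 0 of 58, although they carried mesenchyme markers throughout. Itga9 and Itgb1 were both detected in 3 of 15 E14.5 cells without Col1a1 (20%) and 5 of 66 dorsal cells with Epcam (7.58%). Itga4, a chain known from blood, muscle and epicardial precursors, was in 5 of 20 dorsal cells without Epcam and 4 of 32 liver cells without Afp. Over all cells it stayed under the filter.

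**Figure D4:**
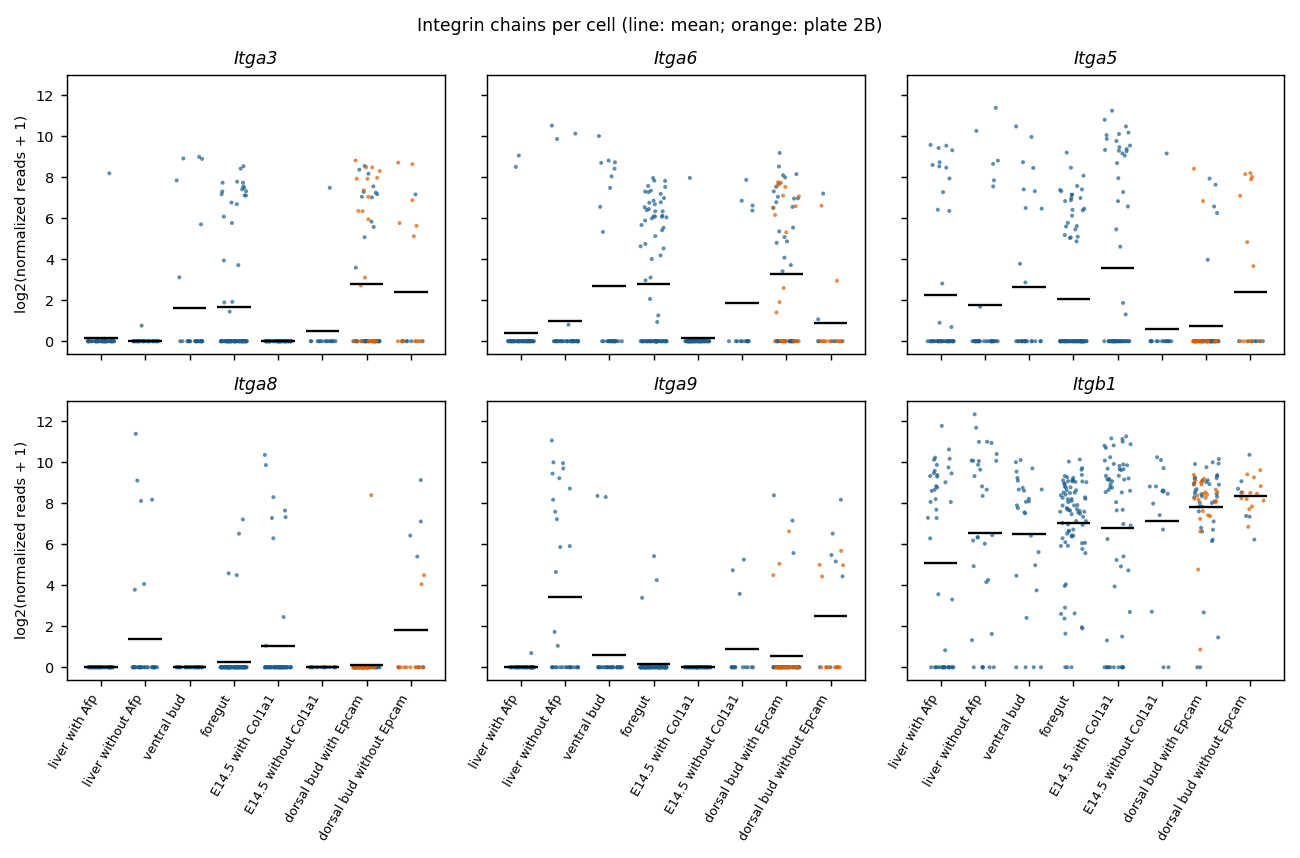
Each point is 1 cell on the log2(normalized reads + 1) scale, with means as black lines and dorsal plate 2B in orange. Itga3 and Itga6 are absent or nearly so from liver cells with Afp and E14.5 cells with Col1a1, where Itga5 averages 2.27 and 3.58. Itga3 is also rare in the other class of each of these plates, and Itgb1 is carried by most cells of every class.

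The 3 genes of integrin-binding proteins are no matrix receptors. Itgb3bp, which is also a centromere protein, was in 63 of 82 foregut cells (76.8%), 34 of 66 dorsal cells with Epcam (51.5%) and 12 of 20 without (60%), and in 6.25% to 44.4% of the other classes. Itgb1bp1, a negative regulator of Itgb1 activation, was in 39 of 82 foregut cells (47.6%) and in 6.25% to 36.4% of the others. Exons of both overlap exons of genes on the other strand (Pgm1 for Itgb3bp, Asap2 and Cpsf3 for Itgb1bp1), as do those of Itga4 (Cerkl), and whether the counting used strand is not given in the sources used here. Besides these, Itgb1bp2, Itga1, Itga2, Itga2b, Itga10, Itga11, Itgb3, Itgb4, Itgb6, Itgb7, Lama2 and Lamb3 stayed under 5% of all cells, from 2 cells for Itgb7 and Lamb3 to 13 for Itga1 and Itga11.

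The comparisons between classes follow, and several share cells: the dorsal cells with Epcam serve in 3 of them, and liver cells with Afp, ventral cells, E14.5 cells with Col1a1 and dorsal cells without Epcam in 2 each. A gene is called higher or lower where the means differ by 1 or more on the log2 scale, and the members' calls among the 16 that passed the filter are set beside the share called among all 11688 genes that passed it.

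In dorsal cells with Epcam against dorsal cells without Epcam, the chains of LM-511 and the laminin receptor chain Itga6 were higher, and Itga5, Itga8 and Itga9 were lower. Lamc1 differed by 2.56, Itga6 by 2.40, Lama5 by 2.27 and Lamb1 by 1.90, while Itga9 differed by -1.93, Itga8 by -1.70 and Itga5 by -1.67. The 4 members called higher are 25% of 16, against 10.8% of all genes, and the 3 called lower are 18.8%, against 23.5% of all genes, so the second share is close to the background. The members' median difference was -0.13 and that of all genes -0.23. Several of these rest on 1 plate. On plate 2A alone Itga8 differed by -4.01, Itga9 by -3.73 and Lamb1 by 4.17, but on plate 2B by -0.32, -0.90 and 0.30. On plate 2B alone Lama5 differed by 2.72 and Itga5 by -3.07, but on plate 2A by 0.31 and 0.79. Itga6 (2.28 on plate 2A, 2.27 on 2B) and Lamc1 (3.17 and 1.44) were called on both plates. The plates themselves were apart by 1 or more in 5 of 16 members with Epcam (28% of all genes) and in 9 of 16 without (42.4%). Against the 10 dorsal cells without Epcam that had 3 or more mesenchyme markers, Itga5 (-0.92), Itga9 (-0.75) and Lama5 (0.78) were no longer called.

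In liver cells with Afp against liver cells without Afp, Lamc1 was higher by 1.43, Lama5 by 1.29 and Itgb3bp by 1.27, and Itga9, Itgb1 and Itga8 were lower. Itga9 averaged 0.02 ± 0.10 with Afp (n = 46) and 3.44 ± 4.24 without (n = 32), a difference of -3.43. Itgb1 differed by -1.48 and Itga8 by -1.39. The 3 members called higher are 18.8% of 16, against 28.1% of all genes, and the 3 called lower are 18.8%, against 6.19% of all genes. The members' median of 0.03 lay below that of all genes, 0.29. Median genes per cell were 3102.5 with Afp and 2303 without, and their part in these differences was not tested. All 6 calls were also made against the 15 cells without Afp that had 3 or more mesenchyme markers.

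In E14.5 cells with Col1a1 against E14.5 cells without Col1a1, 6 members were higher and 3 lower, with Lama5 lower and Lama1 and Lama4 higher. Of the 15 cells without Col1a1, 11 had 3 or more of 8 endocrine markers, of which 7 were detected in that class and none in the 58 cells with Col1a1, and the part of these markers in the differences was not tested. Lama5 averaged 0 with Col1a1 (n = 58) and 5.08 ± 3.85 without (n = 15), a difference of -5.08, whereas Lama1 differed by 2.24 and Lama4 by 1.39. Lamb1 was higher by 2.23 and Lamc1 lower by 1.49 (-1.49). Of the receptors, Itga5 was higher by 2.97, Itgb5 by 1.35 and Itga8 by 1.04, and Itga6 differed by -1.71. The share called higher is 37.5%, against 14.3% of all genes, and the share called lower 18.8%, against 21.9% of all genes. Among cells with Prox1, 10 with and 14 without Col1a1, Itgb5 differed by -0.10, Lamc1 by -0.22 and Itga8 by 0.73, so these 3 calls were lost, and the other 6 were made. Without cells with 2 or more endothelial, blood or megakaryocyte markers, Itga8 (0.91) and Lamc1 (-0.98) were not called.

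In liver cells with Afp against dorsal cells with Epcam, Lama1, Lama5, Lamb1, both laminin-binding integrin alpha chains and Itgb1 were lower, and Itga5 was higher. Lamb1 differed by -4.74, Lama5 by -3.98, Itga6 by -2.91, Itgb1 by -2.73, Lama1 by -2.66 and Itga3 by -2.63, while Itga5 differed by 1.55. The 6 called lower are 37.5% of 16, against 38.3% of all genes, and the 1 called higher is 6.25%, against 12.2% of all genes. The count is therefore near the background of a comparison in which the median gene differed by -0.67 and median genes per cell were 3102.5 in liver cells with Afp and 4864 in dorsal cells with Epcam. Under median-of-ratios scaling 11 members were called, the same 7 and Itgb1bp1, Itgb3bp, Itgb8 and Lamc1. The 7 calls were also made with either dorsal plate alone.

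In ventral cells against dorsal cells with Epcam, 2 epithelial classes of the same day, Itga5 was higher by 1.94 (ventral 2.66 ± 3.82, n = 27; dorsal 0.72 ± 2.16, n = 66). The ventral class had 3 or more hepatoblast markers in 19 cells, the dorsal class in 6, and their part in the differences was not tested. Itgb1 differed by -1.32, Itga3 by -1.20, Lama1 by -1.11, Lama5 by -1.01 and Itgb1bp1 by -1.01. Lamb1 (-0.50), Lamc1 (0.35) and Itga6 (-0.62) were not called. Against plate 2B alone, however, Lamc1 was called higher, and Lamb1 was called lower against dorsal cells with fewer than 3 endocrine markers. The 1 member higher is 6.25% of 16, against 3.7% of all genes, and the 5 lower are 31.3%, against 28.1%, so both shares lie near the background. Lama5 and Lama1 stood at the limit: Lama5 differed by -0.10 from plate 2B alone and was not called after thinning each cell to 500000 reads, and neither was called among cells with at least 2000 genes. Itga3 (-0.55) and Itgb1bp1 (-0.73) were not called against plate 2A alone, nor was Itgb1bp1 (-0.88) under higher class limits. The difference in Itga5 was called with either dorsal plate.

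In E14.5 cells with Col1a1 against dorsal cells without Epcam, the mesenchyme class of the later day had more Lamb1 (1.46), Itga5 (1.19), Lama4 (1.18), Itgb5 (1.09) and Lamc1 (1.00). It had less Lama5 (-3.00), Itga9 (-2.49), Itga3 (-2.39), Itgb1bp1 (-1.73), Itgb1 (-1.57) and Itgb3bp (-1.56). The 5 called higher are 31.3% of 16, against 4.23% of all genes, and the 6 called lower are 37.5%, against 49.7% of all genes. Under median-of-ratios scaling the split was 3 higher and 6 lower, without Itgb5 and Lamc1. Among cells with Prox1, 10 at E14.5 and 17 dorsal, Itga5 differed by 0.06, Lamb1 by 0.75 and Itgb5 by -0.48, and none of these was called. Lamc1 differed by 0.48 under higher class limits. Median genes per cell were 2748.5 at E14.5 and 5356.5 in the dorsal class, and the median gene differed by -0.99. The higher calls depend on the dorsal plate, since Itga5 differed by -0.10, Lamb1 by 0.41 and Lama4 by 0.84 from plate 2B alone, and Lamc1 by 0.90 and Itgb5 by 0.86 from plate 2A alone. The lower calls of Lama5, Itga9, Itga3 and Itgb1 were made with either plate, while Itgb1bp1 (-0.33) and Itgb3bp (-0.21) were not called from plate 2A alone.

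In ventral cells against foregut cells, Lama1 was lower by 2.55 (a difference of -2.55) and Lama5 was higher by 1.02, and Itgb1bp1 (-1.57) and Itgb3bp (-1.19) were lower. No integrin chain was called. The 1 member higher is 6.25% of 16, against 3.99% of all genes, and the 3 lower are 18.8%, against 45.7% of all genes, where the median gene differed by -0.86 and median genes per cell were 3695 in ventral and 5793.5 in foregut cells. Without cells with 2 or more endothelial, blood or megakaryocyte markers (26 ventral and 68 foregut cells), Lama5 differed by 0.72 and was not called, and Itga5 and Lamb1 were called higher. Itgb3bp was not called among cells with at least 2000 genes. Against the 11 foregut cells with 3 or more epithelial markers, Lama5 differed by -1.71 in place of 1.02, 9 members were lower and Itgb8 was higher. Those 11 cells carried Lama5 in 9, Lamc1 in 9, Itga3 in 8 and Lama1 in 6 cells.

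Within the dorsal cells with Epcam, 22 had 3 or more of 8 endocrine markers, and of these 2 carried Lama1, 4 Lamc1 and 14 Lama5, against 25, 32 and 33 of the 44 other cells. On plate 2A Lamc1 was in 3 of 14 against 23 of 27 such cells, and on plate 2B in 1 of 8 against 9 of 17. On the foregut plate the 11 cells with cardiac muscle markers carried Lamc1 in 11, Lama4 in 5 and Itga3 in 0 cells, while the 57 with neural tube markers carried Lama1 in 38, Lamc1 in 23 and Lama4 in 0. These subdivisions were drawn after the values were seen.

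The other genes of the basement membrane and of integrin signalling were taken from lists, of which those past the same filter were counted. The 16 other basement membrane genes include the collagen IV chains and the nidogens, which tie laminin to collagen IV. In liver cells with Afp against dorsal cells with Epcam 12 of them were lower (38.3% of all genes were) and 1 was higher (12.2% of all genes), with a median of -2.46, against -0.67 for all genes. Col4a1 averaged 0.46 in liver cells with Afp and 6.66 in dorsal cells with Epcam, and Col4a2 0.30 and 5.50. In E14.5 cells with Col1a1 against those without 9 were higher (14.3% of all genes) and 1 lower (21.9%), with a median of 1.83, against -0.05 for all genes. Sparc averaged 9.57 with Col1a1 and 1.96 without, Nid1 6.05 and 0.08, and Nid2 5.11 and 0.55. In liver cells with against without Afp 1 was higher (28.1% of all genes) and 8 lower (6.19%), with a median of -0.99, against 0.29.

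In dorsal cells with against without Epcam 6 basement membrane genes were higher (10.8% of all genes) and 4 lower (23.5%), among them Col4a1 (6.66 with and 4.05 without Epcam) and Sparc (4.67 and 7.89). The count lower is near the background. In ventral cells 3 were higher (3.7% of all genes) and 5 lower (28.1%) than in dorsal cells with Epcam, so that the count lower is near the background there too. In ventral cells 6 were higher (3.99% of all genes) and 6 lower (45.7%) than in foregut cells, among them Col18a1 (3.62 in ventral and 8.6 in foregut cells). In E14.5 cells with Col1a1 against dorsal cells without Epcam 5 were higher (4.23% of all genes) and 7 lower (49.7%).

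The 22 integrin adaptor and signalling genes include talin, which activates integrins, and the focal adhesion proteins filamin, vinculin and zyxin. In liver cells with Afp against dorsal cells with Epcam none of the 22 was higher (12.2% of all genes were) and 16 were lower (38.3%), with a median of -1.42, against -0.67 for all genes. Ventral cells had 1 higher (3.7% of all genes) and 12 lower (28.1%) against dorsal cells with Epcam, with a median of -1.02, against -0.47. Ventral cells had 1 higher (3.99%) and 14 lower (45.7%) against foregut cells, with a median of -1.82, against -0.86. Dorsal cells with Epcam had 2 higher (10.8%) and 9 lower (23.5%) against those without, among them Zyx (2.72 with and 7.26 without Epcam), Flna (5.47 and 8.20), Vcl (1.59 and 4.05) and Tln1 (5.10 and 7.44). In the liver 0 were higher (28.1%) and 6 lower (6.19%) with Afp, among them Flna (1.88 with and 7.45 without Afp). At E14.5 8 were higher (14.3%) and 4 lower (21.9%) with Col1a1, among them Flna (6.97 with and 2.56 without Col1a1), while the list's median of -0.07 was close to the -0.05 of all genes. In E14.5 cells with Col1a1 against dorsal cells without Epcam 1 was higher (4.23%) and 13 lower (49.7%), with a median of -1.23, against -0.99.

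Laminin receptors that are no integrins and the ligands of other integrins differed by class as well. Of 7 genes listed as such receptors, Dag1, which encodes dystroglycan, averaged 3.15 in liver cells with Afp, 4.40 in ventral, 7.91 in foregut and 7.45 in dorsal cells with Epcam. Cd151, another of the 7, was also listed among hemidesmosome genes. In liver cells with Afp against dorsal cells with Epcam 2 of the 7 were higher (12.2% of all genes) and 3 lower (38.3%). All 7 were lower in E14.5 cells with Col1a1 against dorsal cells without Epcam, where 49.7% of all genes were lower, and their median was -2.42, against -0.99 for all genes. The syndecan gene Sdc4 averaged 9.09 in liver cells with Afp, against 2.30 without Afp and 4.76 in dorsal cells with Epcam. Of 15 other integrin ligands, 7 were higher (28.1% of all genes) and 4 lower (6.19%) in liver cells with Afp against those without, with a median of -0.02, against 0.29. The fibrinogen gene Fgb averaged 13.27 with Afp and 0.20 without, and the vitronectin gene Vtn 7.0 and 0.05. Vtn also averaged 6.37 in dorsal cells with Epcam and 0.34 without. The fibronectin gene Fn1, the ligand of the Itga5 pair, averaged 0.95 in E14.5 cells with Col1a1 and 8.22 in dorsal cells without Epcam, and 8.6 in ventral and 5.48 in foregut cells. Itga5 and Fn1 did not order these 4 classes alike.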

How the data were processed

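Single cells sorted for Prox1-EGFP fluorescence were sequenced by Smart-seq2, and per the labels' protocols the libraries were made with Nextera XT. The submitters' processing notes name STAR 2.5.3, Cufflinks, Cuffdiff 2.2.1 and the build GRCm38, while neither the scaling nor the strand setting of the counting is given in the sources used here. Per gene and cell, log2 values of size-scaled reads were deposited by the authors, from 0.448 to 17.3, with 76.7% of entries empty, which were read as 0. Taking each cell's smallest step as 1 read, 1647510 of the 1647530 values came out whole (tolerance 0.01 reads). No 2 cells had identical profiles, and the table has 0 columns without a sample.

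Normalized reads were taken back from the log2 values, a pseudocount of 1 was used, and a gene was counted as present in a cell from 5 normalized reads. Classes were set by marker limits. Comparisons across all genes used the 11688 genes present in 5% or more of the cells, and a gene was called at a difference of 1 (log2) or more. Each group counts as 1 sample, so no test was run. Genes named in full are those present in 25% or more of the cells of a class. The members and the gene lists were chosen with earlier results of these data known, and subclasses and alternatives that use markers within a class were added after the values were seen. The scripts were tested on simulated data with 200 changed genes. Alternatives were other pseudocounts (0.1 and 10), median-of-ratios and total-read scaling, reads thinned to 500000 per cell and no filter on low genes. Further alternatives were other class limits, a minimum of 2000 genes, cells with Prox1 only and each dorsal plate left out. Other detection limits were also used, as was leaving out cells with 2 or more endothelial, blood or megakaryocyte markers. The values of 1 member are not reported here. Gene positions are those of GENCODE on GRCm38. Python 3.11.15, numpy 2.4.6, pandas 2.3.3, scipy 1.17.1 and matplotlib 3.10.9 were used.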

Additional observations from a re-analysis of the deposited data

Results flagged for a closer look

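In 3 members past the filter, the differences between dorsal cells with and without Epcam had opposite signs on the 2 plates and reached 1 on at least 1 plate. The difference between plates was not tested. Other members had opposite signs with differences under 1 on both plates, such as Itgb5 (-0.66 on plate 2A and 0.45 on plate 2B). Itga5 differed by 0.79 on plate 2A and by -3.07 on plate 2B. It was in 5 of 41 cells with and 0 of 7 without Epcam on plate 2A, and in 2 of 25 with and 7 of 13 without on plate 2B. Lama1 differed by -1.61 on plate 2A and by 0.71 on plate 2B. Itgb1bp1 differed by 1.01 on plate 2A and by -0.42 on plate 2B. The group without Epcam holds 7 cells on plate 2A and 13 on plate 2B.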

How the results depend on the processing

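No paired analysis was possible because the labels name no animal, and the replicate numbers only name cells in accession order. Of 653 recomputed member differences, 647 kept their sign and stayed within 1 SD, and of 139 recomputed counts and LM-511 shares 130 stayed close to the reported value. That SD is the spread over cells, which is wider than many of the differences. A difference could therefore lose its call and still be counted as kept. In dorsal cells with against without Epcam, Lamb1 was not called on plate 2B alone (0.30), beside SDs of 3.68 and 3.73. The setting with lower class limits moved no cell. A pseudocount of 10 lowered the number of members called to 4 for dorsal cells with against without Epcam (7 reported), 1 for the liver classes (6), 4 for the E14.5 classes (9), 1 for ventral against dorsal cells with Epcam (6), 4 for E14.5 cells with Col1a1 against dorsal cells without Epcam (11) and 1 for ventral against foregut cells (4). For liver cells with Afp against dorsal cells with Epcam a pseudocount of 0.1 gave 12 and median-of-ratios scaling 11 (7 reported). With foregut cells limited to those with 3 or more epithelial markers, a choice made after the data were seen, ventral against foregut cells gave 10, and Lama5 differed by -1.71. Reversed signs were also found for Itga5 in dorsal cells with against without Epcam without plate 2B (0.79), for Itga5 in E14.5 cells with Col1a1 against dorsal cells without Epcam without plate 2A (-0.10), and among cells with Prox1 for Itgb5 in the E14.5 classes (-0.10) and in E14.5 cells with Col1a1 against dorsal cells without Epcam (-0.48). The cause was not tested. With 1 sample a group, spread between animals is unknown.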
